A study of Homo sapiens with 27 samples.

Results

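Human embryonic stem cell (hESC) cultures grown on the laminin matrix labelled LN521 were compared between day 22 and day 2 of a differentiation towards photoreceptor progenitors. The comparison used 6 of the 27 RNA libraries of the series, 3 labelled LN521 at day 2 and 3 labelled LN521 at day 22, all taken by their labels and none by its values. The series also holds cultures on LN523 and LN323 and a day 32 group, and the day 2 and day 22 libraries of those 2 matrices (6 each) were used only to test whether a change differed on LN521. Both groups were H1 hESCs, 1 established line, so that nothing here bears on other donors. Day 2 cells were in NutriStem stem cell medium and had not yet met an inducing agent. Day 22 cells had passed through neural induction medium with SB431542, an inhibitor of the activin and NODAL receptors, and CKI-7, a casein kinase 1 inhibitor, and then through photoreceptor differentiation medium with B27 lacking vitamin A, N2, BDNF, CNTF, retinoic acid and DAPT, which blocks γ-secretase and so Notch signalling. The sources differ on the day of that second change of medium, and the sample labels name laminin 521 with laminin 323 as the coating of these cultures, whereas the study's methods describe LN521 alone. The sample titles name the 2 days D0 and D20, whereas the headers of the deposited counts name them D2 and D22, the names used here. A laminin is a trimer of an α, a β and a γ chain, and laminin 521 is made of the products of LAMA5, LAMB2 and LAMC1.

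Pluripotent cells keep their state through a small circuit of transcription factors, with POU5F1 (OCT4), NANOG and SOX2 at its centre, and lose it when NODAL and activin signalling is blocked. Under such block of NODAL and WNT signals they take an anterior neural fate, and the eye field, marked by RAX, PAX6, SIX3, SIX6 and LHX2, gives rise to neural retina and to pigment epithelium (MITF). Retinal progenitors then leave the cell cycle and become ganglion, horizontal, amacrine, photoreceptor and other cells, a step that Notch signalling holds back.

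The 6 libraries held between 30577756 and 40689003 gene counts. Levels are given as CPM, gene counts scaled to a common library size with TMM factors, in the order replicate 1, 2 and 3, and changes as the fitted log2 fold change of day 22 against day 2 with its standard error (SE). A gene was said to rise or fall where edgeR's quasi-likelihood test with sequencing lane as a block gave a Benjamini-Hochberg adjusted p below 0.05. Day 2 libraries correlated with each other at 0.974 to 0.989 in log CPM, day 22 libraries at 0.961 to 0.976, and the days with each other at 0.785 to 0.836. These libraries are bulk RNA, in which fewer cells of a type and less RNA per cell cannot be told apart. Day 22 replicate 1 stood apart from the other day 22 libraries in keeping pluripotency transcripts, so counts are given with it and without it. In the fit of the 6 libraries, leaving out 1 library also left its lane partner with no weight in the day contrast. A call lost without either library of a lane is therefore not lost in separate ways. The full fit left 2 residual degrees of freedom, and fits without a library left fewer. The fitted change is a mean over lanes on the log scale, and where 1 library is far above its group it differs from the ratio of the group means.

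Of 39176 genes tested, 10053 (25.7%) changed, 5422 upwards (13.8%) and 4631 downwards (11.8%). With a size of at least 1 on the log2 scale, 3918 rose (10%) and 3215 fell (8.21%). Among the genes that changed, the median was 1.58 for rises and -1.50 for falls, and 1347 rises and 1174 falls were of 3 or more on that scale. In 9789 of the 10053 the sign was the same in all 3 lanes. The levels of the groups did not overlap for 14000 genes (35.7%), of which 9305 were among those that changed. Among the 21581 genes with enough counts for edgeR's filterByExpr filter, 9284 (43%) changed, 5135 upwards (23.8%) and 4149 downwards (19.2%). Of the 17835 protein-coding genes 4616 rose and 3611 fell (46.1%). Counts of rises and falls in the gene lists below are to be read beside these shares, and a list near them did not stand out. Over all genes tested the median log2 fold change was -0.15, or -0.00 when the 8360 genes with no count in 1 of the groups were set to their bounds. Without day 22 replicate 1, 7506 genes changed, and 7411 of them were among the 10053, none with the opposite sign. The p-values measure the spread between these samples, which the labels do not say came from separate cultures.

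Nearly every listed pluripotency gene fell. Of 30 pluripotency genes tested, none rose and 29 fell, against 11.8% of all genes tested, and their median log2 fold change was -5.53. The same 29 against 0 was counted without day 22 replicate 1. The levels of 28 of the 30 did not overlap between the days, against 35.7% of all genes tested. POU5F1 (chr6:31164337-31180731, GRCh38), the core octamer-binding factor, stood at 1462, 1704 and 2052 CPM at day 2 and 73.8, 1.33 and 1.48 CPM at day 22. Its 3 day 22 values were all under the lowest day 2 value, but replicate 1 was far above the other 2, and the log2 fold change was -8.66 ± 0.39 (adjusted p = 3.83e-57), or -10.29 without replicate 1. NANOG (chr12:7787794-7799146), its partner in that circuit, was at 79.0, 99.9 and 118 CPM at day 2 and 10.9, 0.0474 and 0.110 CPM at day 22. Here again the groups were apart and replicate 1 was the highest at day 22, with a change of -6.84 ± 0.39 (adjusted p = 3.36e-43). DPPA4, a chromatin-associated stem cell factor, stood at 764, 913 and 1029 CPM at day 2 and 43.5, 1.47 and 1.81 CPM at day 22, a change of -7.67 ± 0.34.

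LIN28A, the RNA-binding protein that blocks let-7 processing, was at 2259, 2699 and 3999 CPM at day 2 and 221, 149 and 101 CPM at day 22. DNMT3B, the de novo DNA methyltransferase of early embryonic cells, was at 3094, 4061 and 3541 CPM at day 2 and 224, 88.2 and 53.9 CPM at day 22. These abundant day 2 transcripts fell by 4.27 and 5.13 on the log2 scale, and LIN28A stayed above 100 CPM in every day 22 library. L1TD1, an RNA-binding protein encoded by a former transposon, was at 462, 716 and 535 CPM at day 2 and 38.0, 7.27 and 6.01 CPM at day 22 and fell by 5.61. SALL4, the zinc finger partner of POU5F1, was at 435, 491 and 579 CPM at day 2 and 71.7, 47.6 and 51.0 CPM at day 22 and fell by 3.16. KLF4 was the member that did not pass, at 5.12, 10.0 and 9.13 CPM at day 2 and 7.31, 5.59 and 7.03 CPM at day 22 (log2 fold change -0.24 ± 0.33, adjusted p = 0.756), and its groups overlapped. DPPA5 passed although replicate 1 of day 22 lay inside the day 2 range, at 0.947, 0.603 and 2.05 CPM at day 2 and 1.27, 0 and 0 CPM at day 22, and its call was lost without replicate 2 or replicate 3 of either day.

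**Figure D1:**
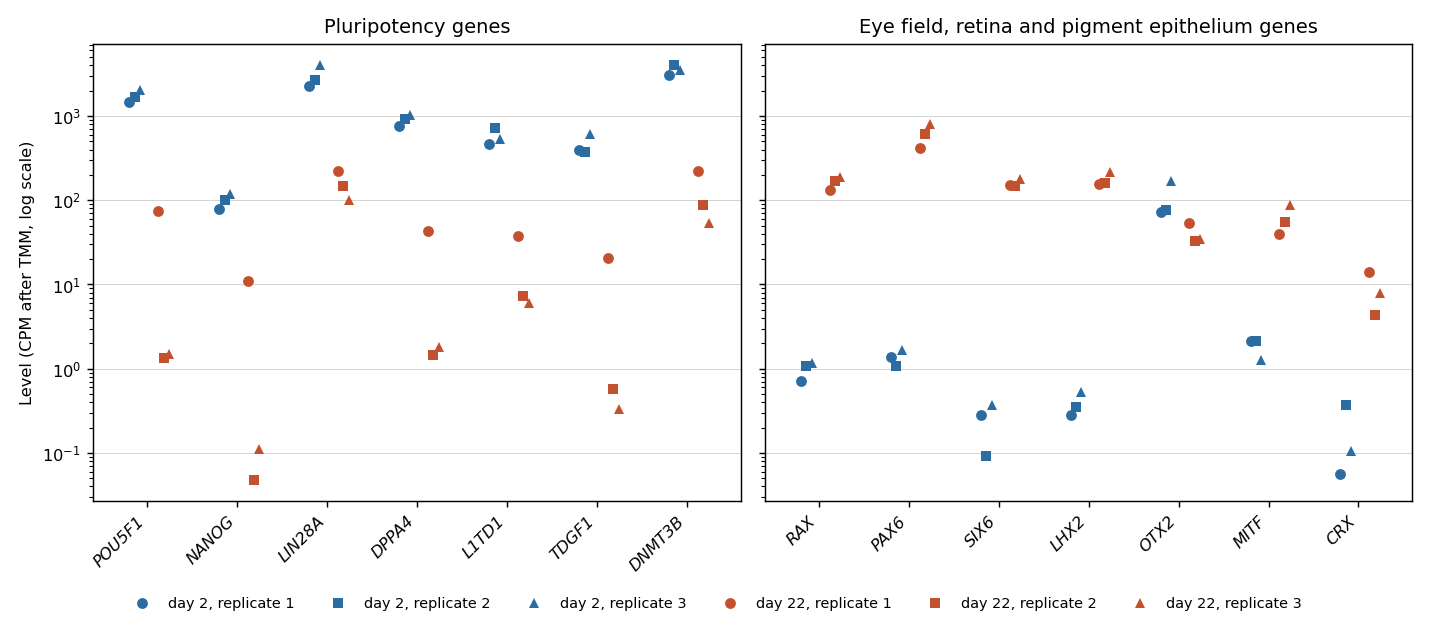
Level of 7 pluripotency genes (left) and 7 eye field, retina and pigment epithelium genes (right) in each LN521 library (vertical axis, CPM on a log scale), with blue for day 2, orange for day 22 and a symbol for each replicate. All 7 genes on the left are lower in every day 22 library, with day 22 replicate 1 (orange circle) the highest of the 3, and on the right all but OTX2 are higher in every day 22 library.

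The pluripotency transcripts that remained at day 22 were unevenly spread over the libraries. For the 24 pluripotency genes with at least 10 CPM at day 2, day 22 replicate 1 held a median of 6.47% of the day 2 mean (2.59 to 45.7%), replicate 2 held 1.18% (0 to 46.6%) and replicate 3 held 1.37% (0 to 29.8%). Replicate 1 was the highest of the 3 in 21 of the 24 genes. Of the day 2 mean, NANOG kept 11.0, 0.0479 and 0.111% in the 3 libraries, POU5F1 4.24, 0.0762 and 0.0852% and DPPA2, a stem cell gene expressed with DPPA4, 15.1, 0 and 0%. For these 3 genes the share was between 4.24 and 15.1% in replicate 1 and near 0 in the other libraries. Not all members followed this: CD9, a tetraspanin, kept 45.7, 46.6 and 19.6%, SALL4 14.3, 9.48 and 10.2% and TRIM71, a stem cell ubiquitin ligase, 12.9, 12.8 and 8.10%, with no such step between the libraries.

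The same measure was taken over all genes, as a description with no test. There were 122 genes with at least 10 CPM at day 2 and under 5% of it in each of replicates 2 and 3, of which 17 were pluripotency genes. Replicate 1, which this choice did not use, held a median of 4.93% of their day 2 level (quartiles 2.63 and 9.44%), or 4.92% over the 105 genes outside the pluripotency list. When replicate 2 or replicate 3 was the library left out of the choice, the medians were 0.506% over 71 genes and 0.382% over 70 genes, 8 of them pluripotency genes in either case. The library left out was at 5% or more in 58 of 122 genes for replicate 1, 7 of 71 for replicate 2 and 6 of 70 for replicate 3. Whether day 22 replicate 1 held remaining stem cells or a low level in many cells cannot be told apart in bulk RNA.

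The 10 genes most above the other day 22 libraries in replicate 1, given as a description with no test, were POU5F1, ONECUT2, NEFL, STMN2, NEFM, CNTN2, DPPA4, CELF3, ELAVL4 and HOXB1, by 3.51 to 4.96 in log2(CPM + 1). They hold 2 pluripotency genes, several genes of differentiated neurons and a hindbrain HOX gene. The 10 most below were BHMT, CRYAB, TBX5, WSCD2, MYOCD, ALDH1A1, ERICH5, WNT2B, DKK1 and RXRG, by -3.25 to -2.47. ALDH1A1, the retinaldehyde dehydrogenase of the dorsal retina, and TBX5, a T-box factor of the dorsal optic cup, were at 272, 1117 and 4170.3 CPM and 3.79, 14.2 and 110.0 CPM at day 22, lowest in replicate 1 and highest in replicate 3 in both.

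NODAL and FGF signalling genes, which hold hESCs in their state, fell more often than they rose. Among 23 tested, 14 fell and 7 rose (13 and 6 without day 22 replicate 1), with a median of -1.79. TDGF1, the NODAL co-receptor, was at 394, 377 and 606 CPM at day 2 and 20.8, 0.568 and 0.329 CPM at day 22 and fell by 7.93 on the log2 scale. GDF3, a NODAL-related ligand, was at 13.5, 17.4 and 8.74 CPM at day 2 and 1.95, 0.0947 and 0.0549 CPM at day 22, and FOXH1, the DNA-binding partner of the SMADs, was at 64.2, 65.9 and 145 CPM at day 2 and 3.95, 0.521 and 0.933 CPM at day 22. These 3 were lower in all day 22 libraries, highest there in replicate 1. NODAL itself was low at both days, at 3.17, 4.69 and 1.50 CPM at day 2 and 1.86, 0.379 and 0.329 CPM at day 22, with overlapping groups and a log2 fold change of -2.14 ± 0.54 (adjusted p = 5.85e-04) that did not pass without replicate 2 of either day. LEFTY2, a NODAL antagonist, did not pass (0.43, adjusted p = 0.518) but did without day 22 replicate 1, as a rise (1.21, adjusted p = 0.0293). FGF2 was at 123, 133 and 153 CPM at day 2 and 24.1, 21.3 and 33.3 CPM at day 22 and its receptor FGFR1 at 553, 658 and 1144 CPM at day 2 and 219.7, 198 and 228 CPM at day 22, so that ligand and receptor fell together, by 2.39 and 1.79. SPRY2 and DUSP6, feedback inhibitors of FGF signalling, rose by 1.27 and 1.09, but DUSP6 had overlapping groups and did not pass without day 22 replicate 1 (adjusted p = 0.754) or day 2 replicate 1.

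The precursor of the stem cell microRNA cluster fell, and MIR100HG and MIR99AHG, hosts of let-7 and miR-99/100 microRNAs, rose, whereas MIRLET7BHG, another let-7 host, fell. MicroRNAs act through their seed, bases 2 to 8, shown in capitals in these mature sequences (RefSeq, GRCh38.p14, written 5′ to 3′) to show which of them share a seed. The libraries were of total RNA and measured host transcripts and hairpin-overlapping reads, not the mature microRNAs. The first 3 lie in the MIR302CHG transcript on the minus strand, at chr4:112648186-112648208, chr4:112648366-112648388 and chr4:112648006-112648028, and share 1 seed.
hsa-miR-302a-3p: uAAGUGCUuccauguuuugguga
hsa-miR-302c-3p: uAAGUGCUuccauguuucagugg
hsa-miR-302d-3p: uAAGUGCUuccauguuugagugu

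Also from that transcript comes miR-367 (chr4:112647877-112647898, minus strand), which shares its seed with miR-92a of the MIR17HG cluster (chr13:91351361-91351382, plus strand). The MIR17HG cluster further holds miR-20a (chr13:91351072-91351094, plus strand), whose seed ends in the AAGUGC with which the miR-302 seed begins.
hsa-miR-367-3p: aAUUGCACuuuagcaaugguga
hsa-miR-92a-3p: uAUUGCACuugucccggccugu
hsa-miR-20a-5p: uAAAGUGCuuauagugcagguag

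From MIR100HG and MIR99AHG come pairs of a like kind: miR-100 (chr11:122152275-122152296, minus strand) and miR-99a (chr21:16539101-16539122, plus strand) share a seed, and so do let-7a (chr11:122146568-122146589, minus strand) and let-7c (chr21:16539838-16539859, plus strand). MIR205HG carries miR-205 (chr1:209432166-209432187, plus strand).
hsa-miR-100-5p: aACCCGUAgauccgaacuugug
hsa-miR-99a-5p: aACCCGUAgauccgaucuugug
hsa-let-7a-5p: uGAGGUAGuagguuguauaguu
hsa-let-7c-5p: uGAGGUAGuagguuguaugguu
hsa-miR-205-5p: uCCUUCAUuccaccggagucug

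MIR302CHG was at 1.92, 2.58 and 1.55 CPM at day 2 and 0, 0.0474 and 0.220 CPM at day 22, and the hairpin gene MIR302C, inside the same transcript, at 9.97, 10.4 and 14.7 CPM at day 2 and 0.408, 0 and 0 CPM at day 22. The groups were apart for both, with log2 fold changes of -4.84 ± 0.79 and -6.82 ± 0.52 (adjusted p = 4.94e-08 and 2.60e-28). MIR367 was at 1.03, 1.79 and 1.26 CPM at day 2 and had no count at day 22, at least 55.6-fold lower. MIR17HG, the host of a cluster tied to proliferation, was at 19.1, 20.8 and 16.0 CPM at day 2 and 5.99, 5.00 and 4.04 CPM at day 22 and fell by 1.90 on the log2 scale. In the other direction MIR100HG was at 0.947, 0.510 and 0.974 CPM at day 2 and 46.0, 39.2 and 101 CPM at day 22 and MIR99AHG at 0, 0.0464 and 0 CPM at day 2 and 12.1, 8.62 and 6.42 CPM at day 22, changes of 6.19 ± 0.27 and 8.83 ± 0.63. All day 22 libraries were above all day 2 libraries for these 2 hosts of let-7 family members. MIR205HG, host of a microRNA of surface epithelia, was at 6.38, 6.13 and 11.4 CPM at day 2 and 95.7, 64.6 and 44.3 CPM at day 22 (log2 fold change 3.09 ± 0.23), and MIRLET7BHG was at 1.70, 3.18 and 0.947 CPM at day 2 and 0 at day 22, at least 79.4-fold lower. MIR210HG, host of the hypoxia-induced miR-210, was at 11.7, 26.8 and 11.9 CPM at day 2 and 13.5, 25.2 and 13.2 CPM at day 22 and did not pass. Of 27 listed microRNA genes and hosts tested, 5 rose and 7 fell (18.5% and 25.9%, against 13.8% and 11.8% of all genes tested). The median was -1.90, or -0.60 with genes lacking a count in 1 group at their bound.

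Genes of the let-7 axis and of developmental timing all passed, 8 downwards and 6 upwards of 14 (8 and 4 without day 22 replicate 1). LIN28B, the paralogue of LIN28A, was at 203, 255 and 261 CPM at day 2 and 125, 102 and 93.9 CPM at day 22 and fell by 1.17, less than LIN28A. HMGA2, a chromatin protein and let-7 target, was at 80.8, 93.7 and 87.8 CPM at day 2 and 232, 218 and 188 CPM at day 22 and rose by 1.28, while its relative HMGA1 was at 2314, 2384 and 3069 CPM at day 2 and 953, 933 and 734 CPM at day 22 and fell by 1.56. PRTG, protogenin of the early neural tube, was at 13.9, 7.59 and 11.2 CPM at day 2 and 195, 239 and 198 CPM at day 22 and rose by 4.31. LINC01551 was at 17.3, 0.0947 and 0 CPM at day 22, in replicate 1 almost alone, and did not pass without it (adjusted p = 1.00) or without day 2 replicate 1.

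Most eye field and retinal progenitor factors rose, and RAX and PAX6 went from near 0 to a high level in every day 22 library. The list already summed to 662, 775 and 956 CPM at day 2, with SFRP2 at 145, 143 and 128 CPM. Of 28 genes of this list, 21 rose and 3 fell (20 and 3 without day 22 replicate 1), against 13.8% and 11.8% of all genes tested, and the median was 7.53. RAX, the homeobox gene that defines the eye field, was at 0.724, 1.07 and 1.16 CPM at day 2 and 132, 171 and 186 CPM at day 22 (log2 fold change 7.38 ± 0.25, adjusted p = 9.33e-79). PAX6 (chr11:31784779-31817961), the master regulator of eye development, was at 1.39, 1.07 and 1.68 CPM at day 2 and 422, 604 and 815 CPM at day 22, a change of 8.77 ± 0.26 (adjusted p = 2.42e-88); 26.3% of its annotated exon length lies opposite another gene. For both of these factors the groups were far apart. In both, replicate 1 was the lowest day 22 library and replicate 3 the highest, with a wider spread for PAX6. SIX6 and LHX2, partners of the eye field, changed by 9.38 ± 0.29 and 8.84 ± 0.27, and SIX3 by 7.52 ± 0.31. The dorsal retina factors TBX2 and TBX3 were at 139.8, 326 and 951 CPM and 37.1, 38.9 and 228 CPM at day 22, against at most 1.74 and 1.11 CPM at day 2. Replicate 3 was the highest by a wide margin for both. On the ventral side VAX2 had no count at day 2 and was at 13.8, 5.83 and 0.220 CPM at day 22, highest in replicate 1 and lowest in replicate 3, at least 258-fold higher over the group or 118-fold without replicate 1; 56.3% of its length is shared with another gene on the same strand. NR2F1 and NR2F2, the COUP-TF nuclear receptors, changed by 9.80 ± 0.29 and 8.77 ± 0.32, and MEIS1 and MEIS2, TALE homeobox cofactors, by 8.80 ± 0.26 and 9.16 ± 0.28.

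FEZF1 and OTX2 were among the listed genes that fell. OTX2, a head and eye factor that hESCs also express, was at 73.2, 76.3 and 169.9 CPM at day 2 and 54.1, 33.0 and 35.1 CPM at day 22, lower in all day 22 libraries by 1.30 on the log2 scale (adjusted p = 4.39e-09). ZIC1, a zinc finger factor of early neural cells, was at 0.111, 0.464 and 0.105 CPM at day 2 and 63.9, 12.9 and 16.9 CPM at day 22 and rose by 6.75, and ZIC2, its relative, did not pass (0.38, adjusted p = 0.138).

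Pigment epithelium genes rose together with the neural retina factors. Of 23 tested, 15 rose and 1 fell (13 and 1 without day 22 replicate 1), with a median of 2.63, or 2.45 with genes lacking a count in 1 group at their bound. MITF, the master factor of pigment cells, was at 2.12, 2.13 and 1.26 CPM at day 2 and 39.9, 54.5 and 88.9 CPM at day 22 (log2 fold change 4.99 ± 0.26, adjusted p = 1.47e-48). PMEL, a structural protein of melanosomes, was at 116, 138 and 226 CPM at day 2 and 966, 1342 and 1625 CPM at day 22. DCT (chr13:94436811-94479682), dopachrome tautomerase of the melanin pathway, was at 0.167, 0.371 and 0.474 CPM at day 2 and 545, 270.2 and 274 CPM at day 22, a change of 9.95 ± 0.29. TYRP1 and TYR, further melanin enzymes, changed by 9.13 ± 0.28 and 6.58 ± 0.53, with TYRP1 at 134, 63.9 and 422 CPM at day 22. These pigment genes were up in all 3 libraries. On the visual cycle side LRAT, lecithin retinol acyltransferase, was at 27.9, 31.7 and 49.1 CPM at day 2 and 1.61, 2.79 and 0.494 CPM at day 22 and fell by 4.58, and BEST1 did not pass (0.22, adjusted p = 0.773). RPE65, the isomerase of mature pigment epithelium, was at 0, 0 and 0 CPM at day 2 and 0, 0.0237 and 0.0549 CPM at day 22. The summed markers MITF, TYR, TYRP1, PMEL and RPE65 stood at 118, 140.4 and 228 CPM at day 2, nearly all of it PMEL, and 1149, 1464 and 2148 CPM at day 22.

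Photoreceptor genes showed no common direction at this time. Among 38 tested, 8 rose, 7 fell and 23 did not pass, and the median was 0.43. That is 21.1% and 18.4%, against 13.8% and 11.8% of all genes tested, but 46.1% of protein-coding genes changed in either direction. With the filterByExpr filter 8 rose and 7 fell of 27, against 23.8% and 19.2% of all genes that passed that filter. The falls were 4 without day 2 replicate 1 or either replicate 2, and the rises were 5 without either replicate 2, so that these counts depend on the libraries kept. CRX, the cone-rod homeobox factor of photoreceptor precursors, was at 0.0557, 0.371 and 0.105 CPM at day 2 and 14.0, 4.36 and 8.02 CPM at day 22. It was low but above day 2 in all libraries, with a log2 fold change of 5.54 ± 0.51 (adjusted p = 4.08e-21), or 4.78 without day 22 replicate 1. RXRG, a nuclear receptor of early cones, was at 0, 0 and 0.158 CPM at day 2 and 1.54, 4.64 and 34.3 CPM at day 22, a change of 8.08 ± 0.57. NRL, the rod-determining factor, was at 1.00, 0.905 and 1.34 CPM at day 2 and 1.47, 1.94 and 0.824 CPM at day 22, and RCVRN, recoverin of differentiated photoreceptors, at 0, 0 and 0 CPM at day 2 and 0.0454, 0.284 and 0 CPM at day 22. Neither passed. ABCA4, a retinoid transporter of photoreceptors that pigment epithelium also expresses, was at 0.167, 0.255 and 0.421 CPM at day 2 and 14.7, 13.6 and 7.60 CPM at day 22 (log2 fold change 5.37 ± 0.44).

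Of 23 neural progenitor genes, 15 rose and 3 fell (13 and 3 without day 22 replicate 1), with a median of 1.86. VIM, the intermediate filament vimentin, was at 74.9, 156 and 179.6 CPM at day 2 and 685, 663 and 1990.4 CPM at day 22, and NCAM1, the neural cell adhesion molecule, at 14.2, 5.75 and 11.0 CPM at day 2 and 157, 76.2 and 114 CPM at day 22. Both were higher in all day 22 libraries. CRB1, a polarity protein of retinal progenitors and Müller cells, was at 0.613, 0.557 and 1.05 CPM at day 2 and 53.7, 115 and 224 CPM at day 22 (log2 fold change 7.34 ± 0.26), rising much more than its relative CRB2 at 39.2, 46.0 and 45.5 CPM at day 2 and 249, 189.8 and 309.9 CPM at day 22 (2.50 ± 0.19). The SOX family split. SOX2, shared by stem and neural cells, was at 366, 437 and 524 CPM at day 2 and 88.4, 116 and 117 CPM at day 22 and fell by 2.04, SOX21 was at 36.5, 46.3 and 125 CPM at day 2 and 6.58, 4.74 and 0.357 CPM at day 22 and fell by 4.15, while SOX4 rose by 0.99 and SOX9 by 1.53. SOX1, the early neural plate factor, was near 0 at both days, at 0, 0.278 and 0.526 CPM at day 2 and 4.24, 0.853 and 0 CPM at day 22, and did not pass.

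Notch pathway and proneural genes gave 14 rises and 7 falls among 28 (11 and 6 without day 22 replicate 1), and a median of 0.95. The falls were 3 without replicate 2 of either day. Cultures at day 22 had been in DAPT, so direct targets of Notch are given by name. Besides those with levels below, HEY1 and HES4 rose and HEYL fell, with no call for HEYL without replicate 2 of either day. HES1 was at 7.88, 12.4 and 9.87 CPM at day 2 and 82.6, 65.7 and 53.7 CPM at day 22 and rose by 2.74, HES5 was at 0, 0.139 and 0.105 CPM at day 2 and 1.54, 0.947 and 1.81 CPM at day 22 and rose by 4.18, whereas HEY2 was at 16.0, 23.2 and 13.3 CPM at day 2 and 5.40, 5.07 and 1.65 CPM at day 22 and NRARP at 21.7, 21.9 and 32.7 CPM at day 2 and 16.0, 10.7 and 10.5 CPM at day 22, with falls of 2.24 and 1.03. The ligand DLL1 was at 5.60, 6.50 and 15.1 CPM at day 2 and 76.7, 52.6 and 52.3 CPM at day 22 (log2 fold change 2.86 ± 0.23), and the receptors NOTCH1 and NOTCH2 changed by -0.53 and 0.61. Neither receptor passed without replicate 2 of either day, nor NOTCH1 without day 22 replicate 1 or 3. NEUROG2, a proneural factor of cells about to differentiate, was at 0, 0.139 and 0 CPM at day 2 and 4.18, 1.23 and 0.384 CPM at day 22, highest in replicate 1, and did not pass without that library (adjusted p = 0.0834). ATOH7, required for ganglion cells, was at 0.278, 0.743 and 0.737 CPM at day 2 and 0.499, 1.14 and 1.37 CPM at day 22 and did not pass.

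Genes of differentiated neurons depended on day 22 replicate 1. In 28 pan-neuronal genes, 11 rose and 5 fell, with a median of 0.44. That is 39.3% and 17.9%, against 13.8% and 11.8% of all genes tested, but 46.1% of protein-coding genes changed in either direction. Without day 22 replicate 1, however, the counts were 5 and 8, and without day 2 replicate 1 they were 5 and 10. Without replicate 2 of day 2 or day 22 they were 12 and 3 or 6 and 2. With the filterByExpr filter they were 6 and 3 of 27, and with DESeq2 7 and 4. Replicate 1 was the highest day 22 library for 25 of the 27 genes at 1 CPM or more, against 28.0% of all such genes. NEFL, the light neurofilament, was at 28.5, 49.0 and 58.6 CPM at day 2 and 249, 42.3 and 2.97 CPM at day 22. STMN2, stathmin 2 of growing axons, was at 6.07, 14.2 and 17.6 CPM at day 2 and 180.2, 9.73 and 7.58 CPM at day 22. In both, replicate 1 was above all day 2 libraries and the other day 22 libraries were not, and neither passed (adjusted p = 0.707 and 0.207). Without replicate 1 NEFL fell (-2.09, adjusted p = 8.86e-09). DCX, doublecortin of migrating neurons, was at 21.5, 6.71 and 10.8 CPM at day 2 and 145, 17.0 and 14.2 CPM at day 22 and passed with and without that library (1.50 and 0.95). SNAP25, of the synaptic vesicle machinery, was at 0.111, 0.232 and 0 CPM at day 2 and 9.62, 3.79 and 1.92 CPM at day 22 (5.49 ± 0.59), and TUBB3, the neuronal tubulin, at 5.07, 4.64 and 2.84 CPM at day 2 and 5.33, 4.29 and 3.07 CPM at day 22 with no difference that passed. The summed level of the list was 407, 415 and 366 CPM at day 2 and 1685, 522 and 451 CPM at day 22.

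Ganglion cell genes followed the same libraries. Of 23 tested, 11 rose and 4 fell (median 1.54), but 6 and 5 without day 22 replicate 1, 7 and 6 without day 2 replicate 1, and 7 and 4 without day 22 replicate 2. They were 6 and 2 of 18 with the filterByExpr filter. SNCG, γ-synuclein, was at 5.29, 4.69 and 8.50 CPM at day 2 and 67.6, 34.2 and 6.48 CPM at day 22, highest in replicate 1 and lowest, within the day 2 range, in replicate 3, and ISL1, a LIM homeobox factor of ganglion cells, was at 0.334, 0.557 and 0.421 CPM at day 2 and 1.47, 4.12 and 0.659 CPM at day 22 and did not pass without replicate 1 or replicate 2 of either day. POU4F2, the factor that defines ganglion cells, was at 0, 0 and 0.0526 CPM at day 2 and 0.658, 0.426 and 0 CPM at day 22. THY1, a surface protein of ganglion cells that hESCs also carry, was at 71.2, 108 and 88.7 CPM at day 2 and 21.1, 5.14 and 6.89 CPM at day 22 and fell by 3.28.

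Among 20 horizontal and amacrine cell genes 7 rose and 4 fell (6 and 5 without day 22 replicate 1), with a median of 1.29, or 1.10 with genes lacking a count in 1 group at their bound. TFAP2B, an AP-2 factor of amacrine cells and of neural crest, was at 0.0557, 0.0928 and 0.0526 CPM at day 2 and 85.0, 46.2 and 16.5 CPM at day 22, above day 2 in all libraries but unevenly so (9.33 ± 0.38, adjusted p = 1.37e-65). FOXN4, an amacrine and horizontal cell fate factor, was at 1.56, 1.23 and 1.26 CPM at day 2 and 15.5, 7.63 and 11.4 CPM at day 22 (3.04 ± 0.37), and PTF1A, which acts after it, was at 0, 0 and 0 CPM at day 2 and 0.0454, 0 and 0.110 CPM at day 22. ONECUT1 and ONECUT2, factors of horizontal and ganglion cells, were at 15.6, 1.09 and 0 CPM and 65.9, 4.22 and 0.384 CPM at day 22, in replicate 1 far above the others, and neither passed; without that library ONECUT2 fell (-1.68, adjusted p = 0.0181).

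Forebrain and optic stalk genes gave 13 rises and 3 falls among 28 (median 2.29, or 1.62 with genes lacking a count in 1 group at their bound), and 8 rises and 4 falls without day 22 replicate 1. The falls were 1 without replicate 2 of either day, and the counts were 8 and 1 of 20 with edgeR's filterByExpr filter on low counts. PAX2, of the optic stalk, was at 0.251, 0 and 0 CPM at day 2 and 2.00, 2.84 and 5.24 CPM at day 22, and VAX1, its partner there, was at 6.08, 0.332 and 0.0549 CPM at day 22 with no count at day 2, at least 84.1-fold higher or 7.54-fold without replicate 1, where it did not pass (adjusted p = 0.546).

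Retinoic acid genes rose, and HOX genes of the anterior groups appeared. Retinoic acid, which was in the day 22 medium, is bound by CRABP proteins, degraded by CYP26 enzymes and read by RAR receptors, and it induces 3′ HOX genes. Of 22 retinoic acid genes 18 rose and 2 fell (13 and 1 without day 22 replicate 1), with a median of 1.91. RARB, a receptor and direct target, was at 1.31, 0.905 and 0.605 CPM at day 2 and 74.3, 37.9 and 37.0 CPM at day 22 (log2 fold change 5.71 ± 0.28, adjusted p = 2.87e-52). CYP26B1 was at 0.278, 0.510 and 0.368 CPM at day 2 and 21.2, 18.5 and 13.5 CPM at day 22 and CYP26A1 at 6.52, 28.3 and 37.3 CPM at day 2 and 76.7, 36.8 and 53.9 CPM at day 22. CYP26B1 rose in every library, whereas the groups of CYP26A1 overlapped and it did not pass without day 22 replicate 1 (adjusted p = 0.192) or day 2 replicate 1. CRABP1, cellular retinoic acid-binding protein, was at 51.7, 67.8 and 109.7 CPM at day 2 and 638, 698 and 511 CPM at day 22 (3.08 ± 0.20). ALDH1A1 was at 4.34, 5.85 and 10.3 CPM at day 2 and 272, 1117 and 4170.3 CPM at day 22, a change of 7.44 ± 0.27, with replicate 3 far above replicate 1, and its relative ALDH1A3 of the ventral retina was at 1.64, 2.58 and 2.39 CPM at day 2 and 35.0, 18.4 and 51.0 CPM at day 22.

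Of 39 HOX genes listed, 38 were in the table and 32 had enough counts to be tested. Of these, 19 rose (59.4%, against 13.8% of all genes tested) and none fell. However, 21 of the 32 had no count in any day 2 library and so could not fall. The median was 6.69, or 5.07 with those 21 members at their bound, and 14 of 28 rose without day 22 replicate 1. HOXB1, an early responder to retinoic acid, was at 0, 0 and 0.0526 CPM at day 2 and 44.7, 7.86 and 0.824 CPM at day 22. HOXB4 had no count at day 2 and was at 43.3, 13.0 and 1.65 CPM at day 22, at least 753-fold higher over the group or 285-fold without replicate 1. In both, replicate 1 was the highest day 22 library and replicate 3 the lowest, and the same order held for the summed list at 353, 118 and 25.3 CPM against at most 1.32 CPM at day 2. Replicate 1 was the highest for 14 of 15 HOX genes at 1 CPM or more. HOXD8 was at 2.36, 0 and 0.0549 CPM at day 22 and did not pass without day 22 replicate 1 (adjusted p = 0.867) or day 2 replicate 1, and the posterior member HOXC13, with no count at day 2, was at 0.590, 0.332 and 0.275 CPM and did not pass without replicate 1 or 2 of either day. HOXC4 and HOXC5 share 17.5% and 67.3% of their length with other genes on the same strand, so their counts are uncertain.

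**Figure D2:**
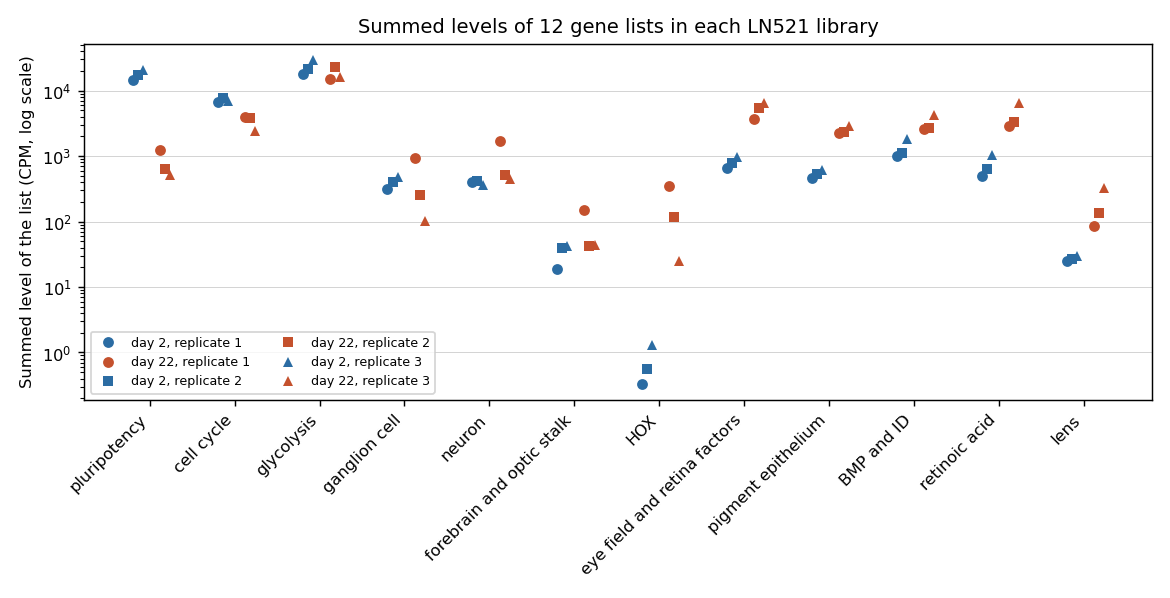
Summed level of 12 gene lists in each LN521 library (vertical axis, CPM on a log scale), with blue for day 2, orange for day 22 and a symbol for each replicate. Day 22 replicate 1 (orange circle) is the highest day 22 library for pluripotency, ganglion cell, neuron, forebrain and HOX genes, and replicate 3 (orange triangle) for eye field, pigment epithelium, BMP, retinoic acid and lens genes.

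WNT pathway genes rose broadly under a medium history that began with a casein kinase 1 inhibitor. Of 45 genes 27 rose and 5 fell (25 and 5 without day 22 replicate 1), with a median of 1.71. SFRP2, a secreted WNT antagonist of the eye field, was at 145, 143 and 128 CPM at day 2 and 932, 2497 and 2221 CPM at day 22 (3.65 ± 0.22), and SFRP1, its relative, was at 492, 431 and 959 CPM at day 2 and 249.8, 171 and 159 CPM at day 22 and fell by 1.62. LEF1, a transcription factor and target of canonical WNT signalling, was at 0.167, 0.232 and 0.474 CPM at day 2 and 24.4, 29.0 and 48.4 CPM at day 22 (6.89 ± 0.34), but AXIN2, the usual target gene, was at 38.6, 49.3 and 46.7 CPM at day 2 and 41.2, 21.4 and 22.9 CPM at day 22 and fell by 0.71, with overlapping groups and no call without replicate 2 of either day. Among ligands, WNT5B was at 0.557, 0.696 and 0.474 CPM at day 2 and 46.5, 38.1 and 30.7 CPM at day 22 and WNT3 at 0.780, 1.72 and 0.132 CPM at day 2 and 61.0, 60.3 and 25.3 CPM at day 22, both from near 0 in all libraries. Receptors FZD1 and FZD2 rose by 4.08 and 3.80, and FZD7, the frizzled of stem cells, fell by 1.59. The 3 casein kinase 1 genes listed, CSNK1A1, CSNK1D and CSNK1E, did not pass (-0.05, 0.24 and -0.32). DKK1, a dorsal WNT antagonist in the eye, was at 0.613, 0.557 and 0.526 CPM at day 2 and 10.4, 29.5 and 166 CPM at day 22, with replicate 3 far above the others.

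BMP signals pattern the dorsal eye. Of 24 genes of this pathway 20 rose and 1 fell (18 and 0 without day 22 replicate 1), with a median of 3.11. BMP4, the ligand of the dorsal optic cup, was at 4.84, 4.36 and 5.97 CPM at day 2 and 47.2, 64.5 and 125 CPM at day 22 (3.86 ± 0.23, adjusted p = 2.94e-41). The targets ID3 and ID2, inhibitors of bHLH factors, were at 57.7, 48.1 and 88.8 CPM at day 2 and 322, 557 and 909 CPM at day 22 and 15.6, 21.1 and 51.8 CPM at day 2 and 179.9, 183 and 339 CPM at day 22. SMAD9, a BMP receptor SMAD, was at 3.40, 3.29 and 2.26 CPM at day 2 and 85.9, 129 and 265 CPM at day 22 (5.59 ± 0.24), and MSX2, a homeobox target, at 0.167, 0.557 and 0.947 CPM at day 2 and 49.8, 29.2 and 149 CPM at day 22. Ligand, SMAD and targets were all higher at day 22 than at day 2 in every library, and in 15 of the 24 genes replicate 3 was the highest at day 22. The antagonists NOG and GREM1 rose as well, by 4.73 and 4.97. BMP2 did not pass (-0.54, adjusted p = 0.152).

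CNTF and BDNF were in the day 22 medium. Of the genes for their receptors, CNTFR, IL6ST and NTRK2 rose and LIFR fell. CNTFR, the CNTF receptor, was at 1.73, 0.882 and 0.947 CPM at day 2 and 88.3, 58.9 and 77.0 CPM at day 22 (6.01 ± 0.26), IL6ST (gp130), its signalling partner, at 12.3, 16.9 and 7.92 CPM at day 2 and 124, 103 and 156 CPM at day 22 (3.40 ± 0.21), and NTRK2, the BDNF receptor, at 0.278, 0.325 and 0 CPM at day 2 and 13.3, 11.1 and 13.0 CPM at day 22 (6.07 ± 0.46). These receptors were higher in all day 22 libraries, whereas LIFR, the third chain of the CNTF receptor, was at 63.3, 66.6 and 64.8 CPM at day 2 and 29.6, 18.9 and 30.2 CPM at day 22 and fell by 1.34. SOCS3, a STAT3 target, rose by 1.26. GFAP, a STAT3 target of astrocytes and reactive Müller cells, was at 1.84, 2.78 and 1.34 CPM at day 2 and 1.04, 0.711 and 1.15 CPM at day 22 and did not pass. In all, 7 of the 17 genes of this list rose and 2 fell (6 and 2 without day 22 replicate 1), with a median of 0.91.

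Cell cycle genes fell almost without exception but by small amounts. Of 36 genes, 32 fell and none rose, with and without day 22 replicate 1, and the median was -1.14. CDC6, which licenses replication origins, was at 112, 134 and 107 CPM at day 2 and 29.5, 59.2 and 13.1 CPM at day 22 and fell by 2.03. BUB1, of the spindle checkpoint, was at 249, 289 and 307 CPM at day 2 and 87.8, 60.1 and 61.1 CPM at day 22 and CCNB1, cyclin B1, at 293, 316 and 336 CPM at day 2 and 167, 119 and 115 CPM at day 22. The days did not overlap for these 3. MKI67, the proliferation marker, was at 349, 203 and 121 CPM at day 2 and 204, 90.3 and 68.7 CPM at day 22, with overlapping groups and a change of -0.92 ± 0.18 (adjusted p = 8.78e-06), and PCNA, the replication clamp, overlapped too at 169, 209 and 194 CPM at day 2 and 112, 190.0 and 55.2 CPM at day 22 and did not pass without replicate 3 of either day. Replicate 3 was never the highest day 22 library in this list, and the summed level was 6765, 7782 and 6876 CPM at day 2 and 3953, 3786 and 2456 CPM at day 22. Those not called were MCM2, KIF20A, TYMS and CCNE2.

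Inhibitors and D cyclins went the other way, with 11 rises and 1 fall among 13 (9 and 1 without day 22 replicate 1) and a median of 1.34. CDKN1A (p21) was at 7.88, 7.68 and 8.50 CPM at day 2 and 77.5, 103 and 89.6 CPM at day 22 (3.48 ± 0.21, adjusted p = 5.62e-39), CDKN2B (p15) at 0, 0.139 and 0 CPM at day 2 and 6.01, 9.38 and 23.2 CPM at day 22, and CDKN2C (p18) at 0.0557, 0.0464 and 0 CPM at day 2 and 5.99, 3.51 and 4.94 CPM at day 22. All were higher in all day 22 libraries. CCND1, cyclin D1 of retinal progenitors, rose by 1.79 and was higher in all day 22 libraries, at 232, 269 and 341 CPM there. GADD45G was the fall, at 40.7, 33.8 and 54.5 CPM at day 2 and 15.5, 8.88 and 5.60 CPM at day 22.

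The chains of the matrix itself were also among the genes that changed. Of 12 laminin chain genes 6 rose and 2 fell, with and without day 22 replicate 1, and the median was 0.46. LAMA5, the α5 chain of laminin 521, was at 296, 228 and 247 CPM at day 2 and 331, 224 and 224 CPM at day 22, and its change was 0.00 ± 0.18 (adjusted p = 0.998). LAMB2, its β2 chain, was at 167, 177 and 211 CPM at day 2 and 373, 368 and 535 CPM at day 22 (1.19 ± 0.18, adjusted p = 8.67e-09), and LAMC1, its γ1 chain, at 279, 269 and 306 CPM at day 2 and 419, 386 and 413 CPM at day 22 (0.51 ± 0.18, adjusted p = 0.0228). The β2 chain was higher in all day 22 libraries, and the α5 chain overlapped. The call for LAMC1 was lost without replicate 1 or replicate 2 of either day (adjusted p = 0.0756 without day 22 replicate 1). LAMB1, the β1 chain of laminin 511 and laminin 111, was at 70.3, 108 and 50.8 CPM at day 2 and 409, 370.1 and 393 CPM at day 22 (2.43 ± 0.20). LAMC3, the γ3 chain of laminins 323 and 523, was at 40.0, 35.0 and 32.7 CPM at day 2 and 5.47, 12.6 and 4.12 CPM at day 22 and fell by 2.44, and LAMA3, the α3 chain of laminin 323, was at 6.49, 7.10 and 3.29 CPM at day 2 and 4.49, 6.32 and 2.58 CPM at day 22 and did not pass. LAMA2 fell by 2.06, LAMA4 rose by 2.09, and LAMB4, with no count at day 2, was at 2.54, 2.79 and 1.10 CPM at day 22, at least 83.7-fold higher.

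Laminin receptors gave 8 rises and 3 falls among 19 (7 and 3 without day 22 replicate 1) and a median of 0.42. That is 42.1% and 15.8%, against 13.8% and 11.8% of all genes tested, but 46.1% of protein-coding genes changed in either direction. ITGA6, the α6 integrin through which hESCs bind laminin 521, was at 265, 283 and 315 CPM at day 2 and 145, 139 and 99.0 CPM at day 22 and fell by 1.19 (adjusted p = 1.11e-08). ITGB1, its β1 partner, was at 354, 469 and 361 CPM at day 2 and 472, 427 and 495 CPM at day 22 and did not pass, and ITGB4, the β4 partner in hemidesmosomes, was at 10.6, 11.7 and 13.6 CPM at day 2 and 84.1, 73.9 and 48.9 CPM at day 22 (2.50 ± 0.21). The α6 subunit and the β4 subunit thus moved in opposite directions in all libraries. ITGAV, a vitronectin and fibronectin receptor subunit, rose by 1.24, and DAG1, dystroglycan, did not pass (-0.04, adjusted p = 0.913).

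Among 25 cadherin and junction genes 12 fell and 8 rose (12 and 7 without day 22 replicate 1), with a median of -0.40. CDH1, E-cadherin of epithelial and stem cells, was at 447, 464 and 591 CPM at day 2 and 266, 301 and 113 CPM at day 22 and fell by 1.23. CDH2, N-cadherin of neural cells, was at 67.7, 103 and 70.7 CPM at day 2 and 404, 396 and 556 CPM at day 22 (2.50 ± 0.20). One cadherin fell as the other rose in every library, and E-cadherin remained above 100 CPM at day 22. CDH6 and CDH11 rose by 4.41 and 3.23. The claudins split. CLDN6, of stem cells, was at 518, 505 and 715 CPM at day 2 and 162, 166 and 111 CPM at day 22 and fell by 1.99, while CLDN1 was at 5.79, 6.40 and 3.95 CPM at day 2 and 156, 157 and 143 CPM at day 22 (4.84 ± 0.22) and CLDN4 at 25.6, 13.6 and 35.2 CPM at day 2 and 183, 171 and 109 CPM at day 22 (2.71 ± 0.21). ESRP1, an epithelial splicing factor, fell by 2.75, and EPCAM by 1.10.

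Glycolysis and glucose genes fell more than they rose, 13 against 4 of 28, with a median of -0.46. The falls were 8 without any 1 of day 22 replicate 1, day 2 replicate 1 and day 2 replicate 2, and in 21 of the 27 genes at 1 CPM or more replicate 2 was the highest day 22 library. SLC16A1, the lactate transporter MCT1, was at 792, 976 and 1327 CPM at day 2 and 199.8, 229.9 and 222 CPM at day 22 and fell by 2.22, and PGAM1, phosphoglycerate mutase, was at 581, 709 and 894 CPM at day 2 and 174, 229 and 128 CPM at day 22 and fell by 2.05. LDHA, lactate dehydrogenase A, was at 923, 1104 and 1582 CPM at day 2 and 645, 1096 and 776 CPM at day 22, with overlapping groups (-0.52, adjusted p = 0.0303), and its call was lost without any 1 of the 6 libraries. GAPDH was at 2732, 3058 and 4310.2 CPM at day 2 and 2299, 3722 and 2579.5 CPM at day 22 and did not pass. SLC2A1, the glucose transporter of the blood-retina barrier, was at 417, 809 and 622 CPM at day 2 and 985, 1518 and 1729.6 CPM at day 22 (1.21 ± 0.19) and VEGFA at 39.0, 61.6 and 36.5 CPM at day 2 and 127, 158 and 161 CPM at day 22 (1.74 ± 0.19).

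Genes of stress and cell death were mixed, with 11 rises and 7 falls among 23 (median 0.49), but 7 and 4 without day 2 replicate 1 and 8 and 4 without day 22 replicate 1. PMAIP1 (NOXA), a pro-apoptotic factor that hESCs keep at a high level, was at 106, 77.8 and 117 CPM at day 2 and 9.08, 5.54 and 3.57 CPM at day 22 and fell by 4.11. TXNIP, a glucose-responsive inhibitor of thioredoxin, was at 17.3, 19.1 and 242 CPM at day 2 and 488, 415 and 677 CPM at day 22, with day 2 replicate 3 far above the other day 2 libraries, and rose by 3.66. EGR1, an immediate early gene, was at 35.8, 48.9 and 6.05 CPM at day 2 and 9.78, 4.17 and 19.2 CPM at day 22, where day 2 replicate 3 was the low library, and FOS at 19.3, 40.0 and 4.95 CPM at day 2 and 40.5, 35.4 and 40.3 CPM at day 22 with the same low library. The groups of both overlapped, and the fall of EGR1 was lost without replicate 1 or 2 of either day and the rise of FOS without replicate 3 of either day. Among 11 abundant and reference RNAs matched, 3 rose and 2 fell, and 7 rose without replicate 3 of either day. ACTB fell by 0.54, a call lost without day 2 replicate 1 or either replicate 2, and MALAT1, a nuclear RNA, was at 1043, 948 and 847 CPM at day 2 and 2057, 1625 and 2601 CPM at day 22 and rose by 1.13; 83.7% of its length lies opposite another gene.

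Markers of other cell types were measured beside these results. Of 31 surface ectoderm and keratinocyte genes 19 rose and 1 fell (18 and 1 without day 22 replicate 1), with a median of 1.60. TP63, the factor of stratified epithelia, was at 0, 0.232 and 0.158 CPM at day 2 and 53.5, 53.5 and 22.0 CPM at day 22 (8.27 ± 0.37, adjusted p = 1.20e-58), and COL17A1, a hemidesmosome collagen, at 2.48, 3.83 and 1.32 CPM at day 2 and 99.7, 120.1 and 104 CPM at day 22 (5.50 ± 0.24). GATA3 was at 0, 0.0928 and 0.105 CPM at day 2 and 17.3, 21.1 and 49.7 CPM at day 22. The basal keratins KRT5 and KRT14 were at 0.408, 0.0947 and 0.220 CPM and 0.0908, 0 and 0.165 CPM at day 22, at or near 0, and the simple keratins KRT8 and KRT19 were at 583, 733 and 849.6 CPM and 369, 492 and 415 CPM. The summed surface ectoderm markers TP63, KRT5, KRT14 and KRT15 stood at 0.640, 0.882 and 0.316 CPM at day 2 and 57.0, 59.9 and 24.1 CPM at day 22. Their part in the rise of the laminin, claudin and integrin genes above was not tested.

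Mesenchyme and matrix genes gave 20 rises and 1 fall among 25 (18 and 1 without day 22 replicate 1), with a median of 3.19. COL3A1, a fibrillar collagen, was at 1.06, 4.32 and 2.66 CPM at day 2 and 609.8, 450.4 and 803 CPM at day 22 (7.97 ± 0.27, adjusted p = 5.49e-80). COL1A2 was at 226, 237 and 319.7 CPM at day 2 and 1248, 1240.4 and 951 CPM at day 22 and rose by 2.14, while COL1A1, its partner in type I collagen, was at 301, 368 and 217 CPM at day 2 and 182, 116 and 246 CPM at day 22 and fell by 0.73 with overlapping groups and no call without day 2 replicate 1 or either replicate 2. LUM, lumican of stroma, was at 0.0557, 0.371 and 0.0526 CPM at day 2 and 24.7, 4.00 and 15.5 CPM at day 22, and DCN, decorin, at 0, 0.232 and 0.105 CPM at day 2 and 14.8, 8.67 and 59.6 CPM at day 22. PDGFRB, a pericyte and fibroblast receptor, was at 13.0, 12.8 and 15.2 CPM at day 2 and 95.1, 90.5 and 245 CPM at day 22 (3.23 ± 0.21). PRRX1, a mesenchyme factor, was at 0.613, 0.0928 and 0.0526 CPM at day 2 and 28.9, 3.27 and 0.769 CPM at day 22, high in day 22 replicate 1 and low in replicate 3.

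Neural crest and glia genes gave 8 rises and 6 falls among 17 (6 and 6 without day 22 replicate 1). FOXD3, shared by stem cells and crest, was at 22.0, 13.4 and 29.8 CPM at day 2 and 1.59, 0 and 0.0824 CPM at day 22 and fell, while SNAI2, a crest factor, was at 0.111, 0.0464 and 0.421 CPM at day 2 and 8.12, 4.22 and 10.5 CPM at day 22 (5.53 ± 0.51). Of 20 mesendoderm genes 9 rose and 3 fell (median 1.93); the rises were 5 without day 22 replicate 2, 6 without day 22 replicate 1 and 2 of 14 with limma on log2(TPM + 1). Their summed defining markers TBXT, MIXL1, SOX17, FOXA2 and GATA4 reached at most 7.70 CPM. FOXA2, of floor plate and endoderm, was at 0, 0 and 0.105 CPM at day 2 and 2.41, 6.21 and 0 CPM at day 22, and FOXA1 at 0, 0.0464 and 0.211 CPM at day 2 and 0.771, 10.7 and 1.48 CPM at day 22, both highest in day 22 replicate 2 and neither passing without it. SHH of the ganglion cell list, a signal of the floor plate and of ganglion cells, was at 0.0557, 0.186 and 0 CPM at day 2 and 1.41, 16.9 and 0.0549 CPM at day 22, also highest in that library, and did not pass without it.

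Of 21 lens genes 8 rose and 3 fell (median 1.62, or 1.56 at bounds), and 5 rose without replicate 2 of either day, or 3 of 15 with the filterByExpr filter. CRYAB, αB-crystallin, was at 3.40, 3.90 and 5.26 CPM at day 2 and 2.63, 6.63 and 152 CPM at day 22, high in day 22 replicate 3 alone and not passing without replicate 3 of either day, and LIM2, a lens membrane protein, had no count at day 2 and was at 1.95, 7.20 and 8.29 CPM at day 22, at least 227-fold higher. CRYAA, αA-crystallin, was at 0, 0.186 and 0 CPM at day 2 and 0.0908, 2.84 and 3.35 CPM at day 22, and CRYBB1 at 4.07, 3.36 and 3.74 CPM at day 2 and 0.953, 1.18 and 0.329 CPM at day 22. Endothelium and blood genes gave 2 rises and 4 falls among 15 (13.3% and 26.7%, against 13.8% and 11.8% of all genes tested). Of protein-coding genes, 46.1% changed in either direction. KDR, the VEGF receptor that hESCs carry at the RNA level, was at 169, 206 and 169 CPM at day 2 and 20.0, 1.09 and 3.35 CPM at day 22. The defining markers PECAM1, CDH5 and PTPRC together were at most 1.77 CPM.

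**Figure D3:**
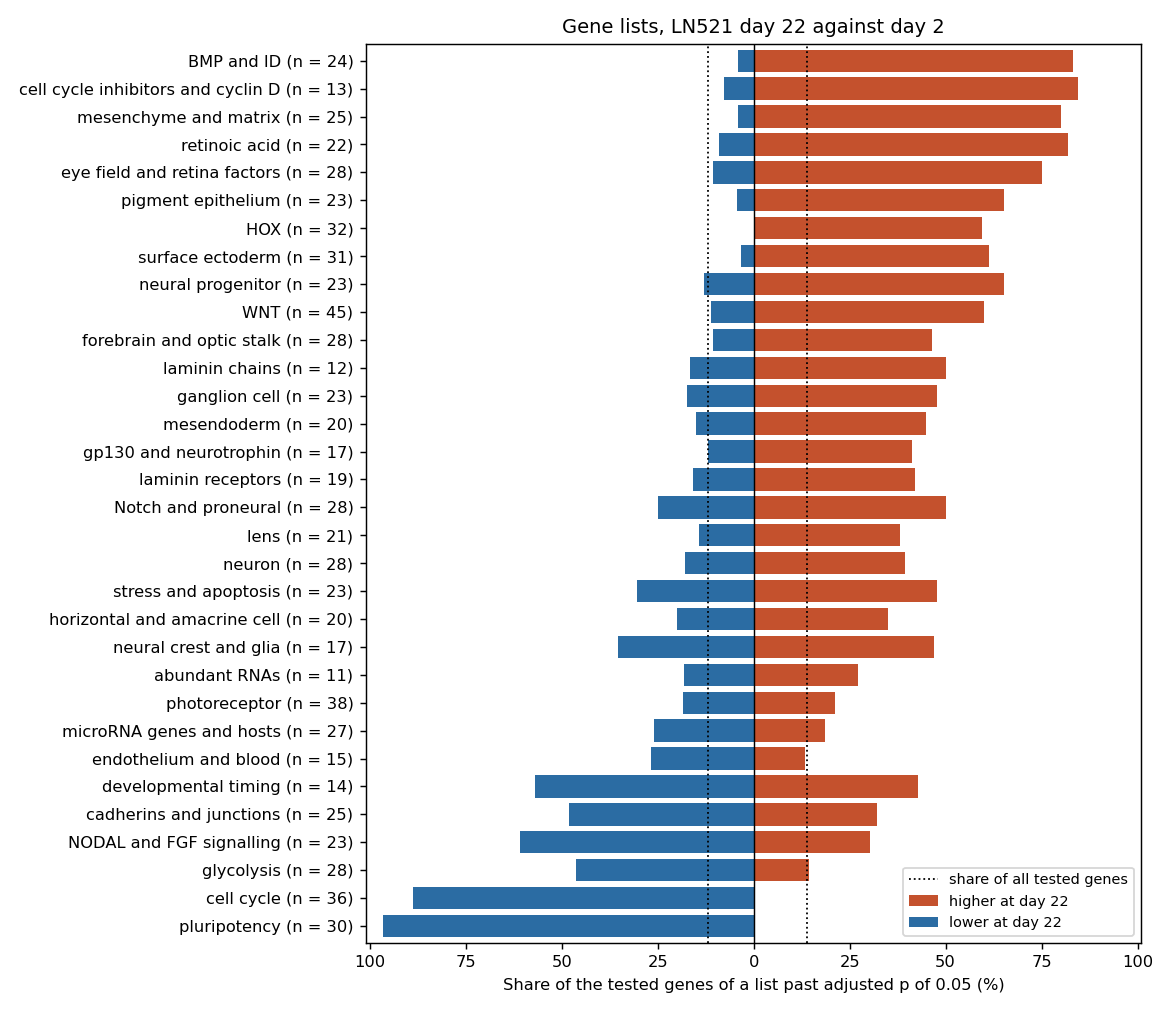
Share of the tested genes of each list (number in brackets) that passed the adjusted p of 0.05 upwards (orange, right) or downwards (blue, left) between day 2 and day 22, with dotted lines at the shares of all 39176 genes tested, 13.8% and 11.8%. Pluripotency and cell cycle genes reach 96.7% and 88.9% downwards, and BMP, retinoic acid, mesenchyme and cell cycle inhibitor genes 80.0% or more upwards.

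The 10 largest rises by fitted change, among genes that changed with 1 sign in all lanes and reached a mean of 10 CPM, were ANKRD1, NDST4, HOXB4, HOXC4, MMRN1, WNT10A, DCT, DIPK1C, NR2F1 and SLC40A1. As ANKRD1, NDST4, HOXB4 and HOXC4 had no count at day 2, only bounds hold for them, and their places in this ranking are uncertain. ANKRD1 (chr10:90912096-90921087), a target of YAP signalling, had no count at day 2 and was at 22.2, 6.21 and 62.4 CPM at day 22, at least 1180.5-fold higher or 554-fold without replicate 3. NDST4 (chr4:114827763-115113876), a heparan sulfate sulfotransferase, also had none and was at 15.0, 24.5 and 14.9 CPM, at least 708-fold higher. MMRN1 (chr4:89879532-89954629), multimerin 1, a platelet and endothelial matrix protein, was at 0.334, 0.0928 and 0.263 CPM at day 2 and 356, 391 and 351 CPM at day 22 (10.66 ± 0.30, adjusted p = 8.47e-94), and WNT10A, a ligand of ectodermal appendages, at 0, 0.0928 and 0 CPM at day 2 and 57.1, 56.8 and 25.4 CPM at day 22. For MMRN1 the 3 day 22 libraries were nearly equal, with the endothelial markers above at or near 0. SLC40A1, the iron exporter ferroportin, was at 0, 0.0464 and 0.0526 CPM at day 2 and 35.1, 34.7 and 25.8 CPM at day 22, and DIPK1C at 0, 0 and 0.0526 CPM at day 2 and 17.6, 19.5 and 18.9 CPM at day 22.

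The 10 largest falls were the unnamed genes ENSG00000280511, ENSG00000260362, ENSG00000254339 and ENSG00000280058, together with MT1H, LINC02570, POU5F1, TRIM54, ESRG and PRDM14. MT1H, a metallothionein, was at 34.9, 28.8 and 28.1 CPM at day 2 and 0.136, 0.0474 and 0 CPM at day 22 (-8.89 ± 0.41), and TRIM54, a muscle ubiquitin ligase, at 14.1, 16.3 and 10.4 CPM at day 2 and 0.0454, 0.0474 and 0 CPM at day 22 (-8.63 ± 0.53). ESRG, a long noncoding RNA of embryonic stem cells, was at 554, 384 and 543 CPM at day 2 and 15.9, 0.142 and 0.329 CPM at day 22 (-8.49 ± 0.35, adjusted p = 3.51e-63), and PRDM14, a repressor that guards pluripotency, at 213, 253 and 251 CPM at day 2 and 6.56, 0.0474 and 0.110 CPM at day 22 (-8.21 ± 0.35). ESRG and PRDM14 were higher in day 22 replicate 1 than in the other 2, and MT1H, TRIM54 and LINC02570, at 0.0454, 0 and 0.0549 CPM, were near 0 in all 3. ENSG00000280511 (chr6:76561328-76562590) was at 10.2, 8.66 and 13.1 CPM at day 2 and had no count at day 22, at least 436-fold lower. Reads of metallothionein genes can be shared between near-identical copies, so the value of MT1H is uncertain.

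By the amount of transcript, the 5 largest gains in mean CPM were COL2A1, SPARC, ALDH1A1, SFRP2 and FN1, and the 5 largest losses DNMT3B, LIN28A, PODXL, USP9X and HMGA1. COL2A1, the type II collagen of the vitreous and of cartilage, was at 25.0, 16.4 and 38.1 CPM at day 2 and 2409, 1952 and 2295 CPM at day 22 (6.47 ± 0.24). SPARC, a matrix-associated glycoprotein, was at 251, 252 and 323 CPM at day 2 and 1741, 2127 and 3236 CPM at day 22, and FN1, fibronectin, at 373, 319 and 307 CPM at day 2 and 1586, 1601 and 2661 CPM at day 22. All of these but the cytosolic enzyme ALDH1A1 and none of the 5 losses encode secreted proteins. PODXL, the podocalyxin that carries stem cell surface epitopes, was at 1913, 1942 and 3338 CPM at day 2 and 112, 26.0 and 34.2 CPM at day 22 (-5.67 ± 0.25), and USP9X, a deubiquitinase, at 1625, 1566 and 3118 CPM at day 2 and 348, 328 and 334 CPM at day 22 (-2.56 ± 0.20), day 2 replicate 3 being the highest for both.

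Whether the change from day 2 to day 22 differed on LN521 was tested against the other matrices, with 18 libraries and 42785 genes. The changes differed from those on LN523 for 227 genes (0.531%), 165 with a higher change on LN521 (0.386%) and 62 with a lower one (0.145%). Against LN323 there were 412 such genes (0.963%), 280 higher (0.654%) and 132 lower (0.309%). Of the 30 pluripotency genes 15 had a less negative change on LN521 than on LN523 and 19 than on LN323, with median differences of 1.48 and 2.34 log2 units. Without day 22 replicate 1 of LN521, these counts were 1 and 3 and the medians 0.17 and 0.46, so that the difference rested on that library. Over all genes the counts without it were 104 and 240, of which 66 and 169 were among those called with it. They were 443 and 662 without LN521 day 22 replicate 3, 42 and 77 without replicate 1 of every group, 459 and 1101 without replicate 2 of every group, 149 and 184 without replicate 3 of every group, and 65 and 133 with no replicate block. With DESeq2 the counts were 85 and 90, and 18 of the 85 were higher on LN521 and 67 lower. All 27 libraries gave 2 and 9, and the filterByExpr filter 0 and 0 of 24484 genes. The 2 comparisons share the LN521 libraries. On simulated data with 200 changed genes, the interaction fits called 80 and 82 unchanged genes, more than the adjusted p threshold allows. An unknown part of the differences called between matrices may therefore be false.

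LNCPRESS1, a long noncoding RNA of pluripotent cells, was at 11.0, 19.4 and 20.4 CPM at day 2 and 3.97, 0 and 0.165 CPM at day 22 on LN521. On LN523 it was at 23.6, 39.1 and 18.9 CPM at day 2 and 0, 0.0476 and 0 CPM at day 22, and on LN323 at 57.1, 25.8 and 77.4 CPM and 0 in all 3. The day 22 level on LN521 was thus carried by replicate 1, and the difference of changes against LN523 was 6.40 ± 0.75 (SE; adjusted p = 2.67e-12), or 2.56 without that library (adjusted p = 0.59). EGR1 moved the other way against LN523 with a difference of -3.54 ± 0.51 (adjusted p = 5.07e-08). On LN523 it was at 5.68, 1.66 and 3.32 CPM at day 2 and 20.0, 5.33 and 12.1 CPM at day 22, so the difference came with high values in LN521 day 2 replicates 1 and 2, and it was -3.32 without day 22 replicate 1. MSX1, a homeobox BMP target, was at 0.278, 0.0464 and 0.105 CPM at day 2 and 39.5, 7.37 and 5.99 CPM at day 22 on LN521. On LN323 it was at 0, 0 and 0.0304 CPM at day 2 and 10.9, 34.0 and 20.5 CPM at day 22, a difference of -4.11 ± 1.01 (adjusted p = 0.0103). Its day 22 levels overlapped between the matrices, and all its day 2 values were near 0. Of the 28 eye field genes 1 differed from LN523 (higher) and 1 from LN323 (lower), and of the 24 BMP genes 0 and 3, with 8 of the 28 neuronal genes higher than on LN523 (2 without day 22 replicate 1).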

How the data were processed

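Total RNA of H1 cultures had been sequenced after ribosomal depletion with a strand-marking kit as paired reads. The authors aligned trimmed reads to GRCh38 with STAR 2.5.2b and counted genes with featureCounts 1.5.1 (strand setting not given in the sources used here); the deposited tables hold rounded read counts per gene, without ribosomal and mitochondrial genes, and TPM values the authors derived from them. Of the non-zero deposited counts 68.2% were even, so counts were not taken as independent molecules.

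From the counts, edgeR 4.0.16 (R 4.3.3) fitted the 6 LN521 libraries with day and sequencing lane, a covariate of the study's DESeq2 model too, over 39176 genes with more than 1 count (TMM, quasi-likelihood test, two-sided, Benjamini-Hochberg). The lane suffix of the titles, shared by the replicate number, made the block; deviations of same-lane libraries correlated at 0.106, 0.0658 and 0.118 over 16515 genes, against -0.109 to 0.0138 for other pairs. Differences between matrices were interaction terms in 18 libraries. Alternatives were DESeq2 1.42.0, RLE scaling, other filters, no block, more libraries, limma 3.58.1 on log2(TPM + 1) and log2(TPM + 0.1), and leaving out libraries. On simulated data with 200 changed genes, the fit recovered 58% and 98% of LN521 changes of 1 and 2 on the log2 scale among 36596 genes. It also called 44 unchanged genes. The interaction fits recovered 15% and 81% against LN523, with 80 unchanged genes called, and 17% and 82% against LN323, with 82. In each fit, unchanged genes were a larger share of the simulated calls than the adjusted p threshold allows. That share was larger in the interaction fits than in the day fit. The adjusted p-values, above all those for differences between matrices, are therefore less strict than they read. Folds against a group with no count are bounds from 3 counts over the group. Gene positions and overlaps are from GENCODE 44, which held 43052 of 44852 genes; 779 of 806 entries of 32 gene lists were matched.

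Members and lists were chosen with earlier results of these data known. Named were list members with the highest level, the largest change or a defining role, the 10 largest rises and falls at a mean of 10 CPM or more, the 5 largest gains and losses in CPM, the 10 genes most above and below in day 22 replicate 1, and up to 5 interaction genes each way; further list members were chosen after their values were seen.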

Additional observations from a re-analysis of the deposited data

Results flagged for a closer look

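The change from day 2 to day 22 differed between LN521 and another matrix, by the interaction term of edgeR's quasi-likelihood test over 18 libraries, for 227 genes against LN523 and 412 against LN323. The 10 named genes of each comparison have the 5 largest differences each way among those with a mean of 10 CPM or more in 1 of the 4 groups compared, and no explanation was tested for any of them. On simulated data the interaction fits called more unchanged genes than the adjusted p threshold allows, so the adjusted p-values below are not strict. The named calls also depended on the setting. Of the 20 named differences, 0 passed with the filterByExpr filter, 2 with DESeq2, 4 with all 27 libraries, 6 without replicate 1 of every group, 12 without LN521 day 22 replicate 1 and 15 with no replicate block. Where a gene had no count in 1 group, only the adjusted p is given.

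Most of the genes with a higher change on LN521 were transcripts that day 22 replicate 1 kept. Against LN523, UTF1, a stem cell chromatin factor, was at 1.68, 0.0474 and 0 CPM at day 22 on LN521 and at 0 in all 3 LN523 libraries (adjusted p = 2.067e-05). HES3 was at 1.45, 0 and 0 CPM (adjusted p = 3.997e-05), and ENSG00000231698 at 0.227, 0.0711 and 0 CPM (adjusted p = 0.003361), each against 0 on LN523. LNCPRESS1 gave a difference of 6.403 and HPAT5, at 2.52, 0.142 and 0.0549 CPM on LN521, one of 5.962. Without day 22 replicate 1, none of these 5 passed (adjusted p from 0.0861 to 1).

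Against LN323 the day 22 group was at 0 on LN323 for 5 such genes, which were LNCPRESS1 (adjusted p = 1.243e-17), GDF3 (3.772e-09), HTR3A, a serotonin receptor channel (1.395e-08), MYH2 (1.964e-05) and LINC01090 (3.341e-06). HTR3A was at 1.27, 0.616 and 0 CPM at day 22 on LN521. LNCPRESS1, GDF3 and HTR3A still passed without day 22 replicate 1 (0.00363, 0.0345 and 1.755e-05), and MYH2 and LINC01090 did not. With DESeq2 or the filterByExpr filter none of the 5 passed, and with all 27 libraries only LNCPRESS1.

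Genes with a lower change on LN521 had another pattern. PRRX1 (adjusted p = 7.61e-05) and ERP27 (adjusted p = 0.03175) had no count at day 2 on LN523 and some on LN521. EGR1 (difference -3.541) and DES, desmin of muscle (-3.233), were higher at day 2 on LN521 than on LN523, unevenly over the libraries, DES at 8.13, 36.2 and 4.13 CPM against 3.10, 3.29 and 3.67 CPM. FSIP2 (-2.253) was at 10.4, 9.26 and 5.26 CPM at day 2 on LN521 and at 1.59, 1.42 and 2.93 CPM on LN523. Without day 22 replicate 1 these 5 passed, but with DESeq2 only FSIP2 of them did, and with all 27 libraries or the filterByExpr filter none.

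Against LN323, B3GALT2 gave -6.12, PRPH, the neurofilament peripherin, -4.437, MSX1 -4.111 and ENSG00000281383 -3.973. GBP2 had no count at day 2 on LN323 (adjusted p = 0.02255). PRPH was at 3.81, 1.42 and 5.88 CPM at day 22 on LN521 and at 28.5, 5.01 and 19.5 CPM on LN323. ENSG00000281383 rested on 1 LN323 library, at 43.1, 2.28 and 0.375 CPM at day 22. Of these 5, GBP2 did not pass without day 22 replicate 1 (adjusted p = 0.0519).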

How the results depend on the processing

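The 10053 genes that changed between day 22 and day 2 stayed within 1.5 times that number under every alternative run, from 8493 with all 27 libraries in the fit to 10354 with DESeq2, and from 6999 to 10353 when 1 library or 1 replicate of both days was left out. With no replicate block the count was 10154, of which 9475 were shared, and the up share of the calls lay between 50.7 and 59.5%. The median log2 fold change shifted by under 0.1 with the scaling. The differences between matrices were less stable. Against LN523 and LN323 they numbered 85 and 90 with DESeq2, 65 and 133 with no replicate block, 2 and 9 with all 27 libraries, and 0 and 0 of 24484 genes with edgeR's test after the filterByExpr filter, where 1487 and 1789 had an unadjusted p under 0.05. They numbered 104 and 240 without LN521 day 22 replicate 1, 443 and 662 without its replicate 3, and 42 and 77, 459 and 1101, and 149 and 184 without replicate 1, 2 and 3 of every group. The cause was not tested.

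Some named genes turned direction. With 1 library left out, the difference for HES3 against LN523 ran from -0.10 without LN521 day 22 replicate 1 to 7.71 without replicate 3, and was -0.74 without replicate 1 of every group. That for LINC01090 against LN323 ran from -0.00059 to 7.82 without the same libraries. The change of CNTN2 was -0.19, -0.13 and -0.19, that of NEFM -0.72, -0.69 and -0.76, and that of LINC01551 -0.12, -0.70 and -0.77, without day 2 replicate 1, without day 22 replicate 1 and without both, and these genes reached 1.94, 2.37 and 6.62 without day 22 replicate 3. BHMT was at -0.017, -0.021 and -0.057 without day 2 replicate 3, without day 22 replicate 3 and without both, and at 2.62 without day 22 replicate 1. In that order of replicate 3 libraries NEFL was at 1.46, 1.50 and 1.46 and ONECUT2 at 1.49, 1.53 and 1.50, and with no replicate block they were at 1.12 and 2.14. NEFL was at -2.16 without day 2 replicate 1 and ONECUT2 at -1.68 without day 22 replicate 1. ONECUT1 was at -1.96 without day 2 replicate 1, -2.21 without day 22 replicate 1 and 1.84 without day 22 replicate 3, and STMN2 at -0.88 without day 2 replicate 1 and 2.20 without day 22 replicate 3. Depth limits genes under 1 CPM, where few calls were made.

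The counts of rises and falls in some gene lists moved by over 1.5 times with the processing. With the filterByExpr filter they were 4 and 14 of 23 NODAL and FGF, 6 and 2 of 18 ganglion cell, 8 and 1 of 20 forebrain, 6 and 3 of 27 neuron, 12 and 0 of 12 HOX, 4 and 8 of 28 glycolysis and 3 and 3 of 15 lens genes. With limma on log2(TPM + 1) they were 2 and 12 of 23 NODAL and FGF, 9 and 5 of 26 Notch, 5 and 4 of 23 photoreceptor, 4 and 2 of 20 ganglion cell, 5 and 2 of 17 horizontal and amacrine cell, 5 and 1 of 18 forebrain, 4 and 3 of 27 neuron, 11 and 0 of 18 HOX, 3 and 2 of 12 laminin chain, 4 and 7 of 28 glycolysis, 2 and 2 of 14 mesendoderm, 3 and 3 of 17 lens and 0 and 3 of 7 endothelium and blood genes, and log2(TPM + 0.1) moved the same lists except Notch, HOX and laminin chains. DESeq2 gave 7 and 4 neuron genes, RLE scaling 20 and 3 mesenchyme genes, no replicate block 11 and 4 horizontal and amacrine cell genes, the 9 LN521 libraries 11 and 5 forebrain genes, and all 27 libraries 11 and 3 neuron, 3 and 8 glycolysis and 7 and 5 stress genes.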

Other observations

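The genes described here were chosen after their values were seen. Small nucleolar RNAs, which guide the modification of other RNAs and are cut from the introns of host transcripts, held 1 family that fell on LN521. Of 355 tested, 51 fell and 6 rose, or 14.4% and 1.69% against 11.8% and 13.8% of all genes tested. The SNORD116 family made up 23 of the 51, with 27 members tested and none up, and outside it 28 of 328 fell (8.54%). These copies lie in 1 long transcript of the imprinted Prader-Willi region, SNHG14 (chr15:24978583-25420336, GRCh38), which was at 1219, 1002 and 722 CPM at day 2 and 144, 153 and 119 CPM at day 22 (log2 fold change -2.80 ± 0.20, adjusted p = 1.38e-31). The host was lower in all day 22 libraries, and so were the SNORD116 copies named here. SNORD116-19 was at 49.8, 76.0 and 48.6 CPM at day 2 and 10.3, 12.7 and 21.7 CPM at day 22, and SNORD116-26 at 9.55, 15.9 and 4.66 CPM at day 2 and 0.340, 0.332 and 0.961 CPM at day 22. Of 20 tested copies of SNORD115, the other repeat family of that transcript, 0 passed in edgeR's test or in DESeq2 and 0 had an unadjusted p under 0.05 in edgeR, with a median of 2.03 and a range from -3.12 to 4.21. SNRPN, upstream in the same region, was at 51.9, 44.5 and 67.5 CPM at day 2 and 21.4, 23.1 and 32.5 CPM at day 22 and fell by 1.09, whereas UBE3A, the gene that SNHG14 runs against, was at 137, 152 and 151 CPM at day 2 and 141, 121 and 132 CPM at day 22 and did not pass (adjusted p = 0.686). NDN, another imprinted gene near it, was at 31.2, 28.3 and 34.6 CPM at day 2 and 98.5, 123 and 96.6 CPM at day 22 and rose by 1.76. Reads of a host intron that cover a small RNA can count for that RNA too, and the copies are nearly alike, so single SNORD116 values are uncertain. SNORD17 was the most abundant small nucleolar RNA that rose, at 49.2, 24.7 and 36.3 CPM at day 2 and 54.4, 73.9 and 55.4 CPM at day 22.

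The imprinted pair H19, a noncoding RNA, and IGF2, a growth factor, rose together. H19 was at 3.93, 2.81 and 4.24 CPM at day 2 and 935, 450.5 and 295 CPM at day 22 (7.12 ± 0.25) and IGF2 at 1.14, 1.67 and 1.97 CPM at day 2 and 347, 334 and 198 CPM at day 22 (7.49 ± 0.25); 43.2% of the length of IGF2 is shared with another gene on the same strand. DLK1, an imprinted Notch-like ligand, was at 1.84, 3.57 and 2.42 CPM at day 2 and 121, 122 and 194 CPM at day 22 (5.81 ± 0.23). The groups were far apart for all 3.

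Calls were spread unevenly over gene classes and levels. Of 17835 protein-coding genes 4616 rose and 3611 fell (46.1%, median 0.06), of 9571 long noncoding RNAs 529 rose and 581 fell (11.6%, median -0.21), and of 5204 processed pseudogenes 45 rose and 159 fell (3.92%, median -0.90). Below a mean of 1 CPM 6.07% of 22661 genes changed, and at 100 CPM or more 55.1% of 2224, with 535 rises and 690 falls.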
